A study of Mus musculus with 32 samples.

Results

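The 3 genes described here, *Kdm5a*, *Kdm5b* and *Kdm5c*, encode the KDM5 demethylases carried on mouse autosomes and the X chromosome. They were taken by name from the gene tables, together with all 21 of their annotated transcripts (9 of *Kdm5a*, 6 of *Kdm5b* and 6 of *Kdm5c*) from the transcript tables, which hold 53715 genes and 135181 transcripts in all. Polyadenylated RNA was sequenced from microdissected amygdala and hippocampus of 16 adult male mice, with both regions taken from the same animals, giving 32 libraries. There were 4 genotypes with 4 mice each: WT carried intact alleles of both genes, *Kmt2a*-HET carried 1 mutant *Kmt2a* allele, *Kdm5c*-KO carried a mutant *Kdm5c* on its single X chromosome, and the double mutant (DM) carried both mutations. All mice were F1 hybrids of 129S1/SvImJ fathers and C57BL/6 mothers. The *Kmt2a* allele came from the father and the *Kdm5c* allele from the mother, so *Kdm5c* was read from a C57BL/6 X chromosome in every library. The *Kmt2a* mutation removed floxed exons 8 and 9 through an inducible Cre line expressed from the ROSA26 locus, and the *Kdm5c* mutation was a constitutive knockout directed at exons 11 and 12. The tissue was a mixture of neurons, glia and other cells, in which fewer cells of a type and less RNA per cell cannot be told apart.

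KDM5 proteins are dioxygenases that use iron and 2-oxoglutarate to remove methyl groups from trimethylated and dimethylated lysine 4 of histone H3 (H3K4), a mark of active promoters and enhancers. The catalytic JmjC domain is joined to a JmjN domain, an ARID domain that binds DNA and PHD fingers that read the histone tail. KDM5 proteins work against the KMT2 and SETD1 methyltransferases, and they are found in complexes with histone deacetylases, SIN3 proteins, REST and E2F6. Mutations of human *KDM5C* cause an X-linked intellectual disability, and the Y chromosome carries a close relative, *Kdm5d*.

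Gene counts per library ranged from 19215503 to 27798980, and spike-in RNA took 0.0503 to 0.511% of the counts. The limit set by 3 counts in a library lay between 0.108 and 0.156 CPM (counts scaled to the library total) and covers counting error only. *Kdm5a*, *Kdm5b* and *Kdm5c* were far above it in all 32 libraries. The labelled tissues were checked by marker genes: all 5 hippocampal markers were higher in the hippocampus (median log2 fold change 4.77). Of the 5 amygdala markers, *Tac2* (-2.61) and *Nts* (-2.48), which encode neuropeptides, were lower in the hippocampus, whereas *Rspo2* was higher there (1.79). *Cyp26b1* and *Prkcd* were not called (DESeq2 adjusted *p* of 0.1 or more). The comparison of regions called 46.3% of all genes tested. All 6 striatal markers were lower in the hippocampus, with summed normalised counts of 5338 to 41979 in amygdala libraries and 1996 to 10708 in hippocampal ones, and none was at 0 in every library. Mice numbered 1 stood apart for *Kdm5a*, which was the lowest of its group in replicate 1 in 3 of 4 amygdala groups and 4 of 4 hippocampal groups (mean log2 difference from the others -0.42 and -0.37). *Kmt2a* was the lowest in replicate 1 in all 8 groups (-0.69 and -0.68), *Kdm5b* in 4 of the 8 and *Kdm5c* in 3 of the 8.

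The sequences around the targeted exons show how close the KDM5 transcripts are to each other. *Kdm5a* (ENSMUSG00000030180.15) lies at chr6:120364124-120444574, *Kdm5b* (ENSMUSG00000042207.17) at chr1:134560171-134635285 and *Kdm5c* (ENSMUSG00000025332.14) at chrX:152233020-152274535, all on the plus strand (mm10, GENCODE M21). Of 25 exons compared after the first, 15 had the same length in the 3 genes, with the longest unbroken run from exon 8 to exon 16. In *Kdm5c*-202 and *Kdm5c*-203, exon 11 has 182 bases (chrX:152253424-152253605) and exon 12 has 163 (chrX:152253699-152253861). Together they make 345 bases, a multiple of 3, and 5.35% of the length of *Kdm5c*-203. The same exons are numbered 10 and 11 in *Kdm5c*-201, and no other annotated *Kdm5c* transcript overlaps them. They code for part of the JmjC domain in each of the 4 proteins. The exon 11 sequences are given below from the GENCODE M21 transcripts, 5′ to 3′, with capitals at the bases that differ from *Kdm5c*; the *Kdm5a* exon lies at chr6:120390654-120390835, the *Kdm5b* exon at chr1:134604442-134604623 and the *Kdm5d* exon at chrY:921402-921583.
Kdm5c exon 11: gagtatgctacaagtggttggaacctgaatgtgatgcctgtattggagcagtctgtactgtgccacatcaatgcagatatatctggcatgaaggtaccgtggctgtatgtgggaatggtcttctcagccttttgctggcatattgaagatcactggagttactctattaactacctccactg
Kdm5a exon 11: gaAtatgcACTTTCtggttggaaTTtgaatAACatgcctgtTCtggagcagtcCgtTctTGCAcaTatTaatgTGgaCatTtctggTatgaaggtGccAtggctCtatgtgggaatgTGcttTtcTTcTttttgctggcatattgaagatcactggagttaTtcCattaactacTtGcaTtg
Kdm5b exon 11: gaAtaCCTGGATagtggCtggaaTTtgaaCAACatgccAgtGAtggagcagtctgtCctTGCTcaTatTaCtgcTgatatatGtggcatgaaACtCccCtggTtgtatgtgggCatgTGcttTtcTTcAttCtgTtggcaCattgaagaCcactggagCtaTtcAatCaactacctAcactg
Kdm5d exon 11: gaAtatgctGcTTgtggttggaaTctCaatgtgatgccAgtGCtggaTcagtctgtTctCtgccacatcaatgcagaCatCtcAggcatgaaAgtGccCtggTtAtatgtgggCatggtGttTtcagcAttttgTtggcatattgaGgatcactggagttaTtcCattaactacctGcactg
Exon 12 follows, again with capitals at the bases that differ from *Kdm5c*, at chr6:120394087-120394249 for *Kdm5a*, chr1:134605713-134605875 for *Kdm5b* and chrY:921674-921836 for *Kdm5d*.
Kdm5c exon 12: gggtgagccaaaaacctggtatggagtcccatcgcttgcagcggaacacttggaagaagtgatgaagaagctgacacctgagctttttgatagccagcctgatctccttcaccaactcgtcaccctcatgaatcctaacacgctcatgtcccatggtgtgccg
Kdm5a exon 12: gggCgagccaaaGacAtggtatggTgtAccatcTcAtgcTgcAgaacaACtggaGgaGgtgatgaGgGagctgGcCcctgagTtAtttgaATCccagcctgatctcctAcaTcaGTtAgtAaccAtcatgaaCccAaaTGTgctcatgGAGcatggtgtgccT
Kdm5b exon 12: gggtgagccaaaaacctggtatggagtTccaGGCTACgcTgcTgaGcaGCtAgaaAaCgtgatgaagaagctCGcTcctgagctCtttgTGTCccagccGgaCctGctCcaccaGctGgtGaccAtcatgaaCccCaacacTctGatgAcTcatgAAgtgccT
Kdm5d exon 12: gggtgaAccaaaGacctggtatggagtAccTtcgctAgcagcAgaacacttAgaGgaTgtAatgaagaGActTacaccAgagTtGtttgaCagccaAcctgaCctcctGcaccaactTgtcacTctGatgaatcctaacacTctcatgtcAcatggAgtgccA
Exon 11 of *Kdm5c* was identical at 77.5% of its bases to *Kdm5a*, at 73.1% to *Kdm5b* and at 84.1% to *Kdm5d*, and exon 12 at 76.7, 75.5 and 83.4%. The X- and Y-linked pair was the closest in both exons. The longest stretch shared without a mismatch with *Kdm5c* was 32 bases in *Kdm5a*, 32 in *Kdm5b* and 35 in *Kdm5d*, counted over the longest coding transcript of each gene.

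The main *Kdm5c* transcripts differ in the length of the first exon, at exon 3, at the end of exon 24 and at their 3′ ends. *Kdm5c*-201 lacks exon 3 (123 bases, chrX:152239630-152239752), which is shown in capitals between the last 20 bases of exon 2 and the first 20 of exon 4. *Kdm5c*-202 has 9 further bases at the end of exon 24 (chrX:152271930-152271938), in capitals below after the end of the exon as *Kdm5c*-203 has it and before the start of exon 25.
Kdm5c exon 3: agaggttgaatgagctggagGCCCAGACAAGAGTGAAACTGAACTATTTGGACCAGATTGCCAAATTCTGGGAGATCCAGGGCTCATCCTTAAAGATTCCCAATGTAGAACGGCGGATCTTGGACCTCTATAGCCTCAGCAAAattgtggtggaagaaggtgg
Kdm5c exon 24: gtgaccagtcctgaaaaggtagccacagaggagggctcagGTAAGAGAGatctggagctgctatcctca
Both differences are multiples of 3. *Kdm5c*-203 reaches 763 bases further downstream than *Kdm5c*-201. The coding forms of *Kdm5b* differ more there, since *Kdm5b*-203 ends 3763 bases before *Kdm5b*-201.

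**Figure D1:**
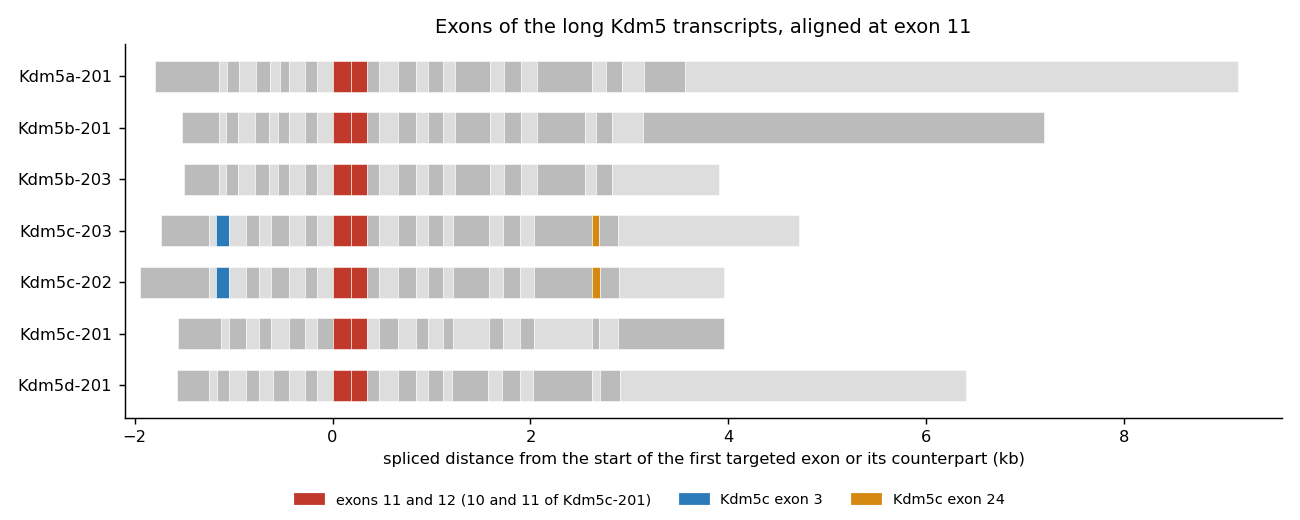
Exon structure of the main *Kdm5a*, *Kdm5b*, *Kdm5c* and *Kdm5d* transcripts, drawn as spliced exons to scale along the x axis in kilobases of RNA, with alternate grey shades for neighbouring exons. Red marks the targeted exons 11 and 12 (10 and 11 of *Kdm5c*-201) and their counterparts, blue *Kdm5c* exon 3, which *Kdm5c*-201 lacks, and orange exon 24, which is 79 bases long in *Kdm5c*-202 and 70 in *Kdm5c*-203.

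The level of each gene was compared per length, as TPM (transcript counts per length, scaled to the library) summed over its transcripts. *Kdm5b* and *Kdm5c* were at similar levels and *Kdm5a* was the lowest. In the amygdala the TPM of *Kdm5a* was 15.4 ± 3.22 (SD, n = 16), that of *Kdm5b* 27.2 ± 4.42 and that of *Kdm5c* 26.8 ± 4.54. In the hippocampus the values were 17.4 ± 3.64, 30.0 ± 4.48 and 27.5 ± 4.09. *Kdm5a* was the lowest of the 3 in all 32 libraries, whereas *Kdm5b* exceeded *Kdm5c* in 9 of 16 amygdala and 10 of 16 hippocampal libraries, so the order of these neighbours was not resolved. Of the 16 libraries in each region 8 carried the *Kdm5c* mutation, with *Kdm5c* counts at 81.1% (amygdala) and 81.4% (hippocampus) of the intact mean. The order was not compared by genotype. It also depended on the length used. With the gene count divided by the longest transcript, *Kdm5c* was above *Kdm5b* in 14 of 16 amygdala libraries and 13 of 16 hippocampal libraries, and *Kdm5a* was at 11.95 in amygdala and 12.8 in hippocampus.

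The mutation of *Kdm5c* was followed by the count of the gene itself. The 8 libraries with an intact *Kdm5c* (WT and *Kmt2a*-HET) were compared with the 8 libraries with the mutation (*Kdm5c*-KO and DM) within each region, allowing for the *Kmt2a* genotype. In the amygdala, intact libraries had normalised *Kdm5c* counts from 1227 to 2026 with a median of 1599, and mutant libraries from 1225 to 1434 with a median of 1269. In the hippocampus, intact libraries ranged from 1426 to 1888 around a median of 1605, and mutant libraries from 1145 to 1430 around 1337. All 8 mutant libraries lay below the intact median in both regions, and the groups overlapped. In the amygdala 1 mutant library, DM replicate 4 (1225), was below every intact one, and WT replicate 1 (1227) lay among the mutants. In the hippocampus 7 of 8 were, and DM replicate 2 (1430) was just above the lowest intact library, WT replicate 3 (1426).

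*Kdm5c* fell by 0.30 on the log2 scale in the amygdala (SE 0.084, 1292 ± 69.1 against 1593 ± 229, n = 8 each, DESeq2 *p-adj* = 0.0307) and by 0.30 in the hippocampus (SE 0.062, 1314 ± 91.2 against 1615 ± 145, DESeq2 *p-adj* = 0.000304). Mutant libraries thus kept 81.1% (amygdala) and 81.4% (hippocampus) of the intact mean. The 95% intervals of the change ran from -27.6 to -9.02% and from -25.3 to -11.5%. The call was made in a comparison that called 1.65% of the genes tested for amygdala and 2.71% for hippocampus. With size factors from the spike-in RNA neither call was made (log2 fold change -0.45 and -0.43). In the hippocampus 5 of 6 choroid plexus markers rose with *Kdm5c* loss (median log2 fold change 2.82 over the list, with 3.89 for the potassium channel gene *Kcnj13*, 1.77 for the Klotho gene *Kl* and 2.77 for the chloride channel gene *Clic6*). This count was 1 with edgeR, and 0 with spike-in size factors or without replicate 1 of every genotype. Their summed counts ranged from 878 to 24865 in intact and from 1075 to 100772 in mutant libraries, with no marker at 0 in every library. In the amygdala 0 of the 6 were called by DESeq2, although all 6 had an unadjusted *p* under 0.05, and the sums were 848 to 1227 and 808 to 42233. Of the hippocampal markers *Spink8* rose with *Kdm5c* loss in the hippocampus (1.18, list median -0.21), a call lost with spike-in size factors. Of the amygdala markers *Rspo2* fell with the *Kmt2a* mutation in the hippocampus (-0.68, list median 0.13). That call was lost with edgeR, with spike-in size factors, at an adjusted *p* under 0.05 and without replicate 1 of every genotype. None of the striatal markers was called in a genotype comparison. With *Kdm5c* loss in the amygdala, *Cyp26b1*, *Prkcd* and *Prox1* had an unadjusted *p* under 0.05 (DESeq2). There 1 amygdala marker was called lower without replicate 1 of every genotype. Median sums in intact and mutant amygdala were 2356 and 1669 for amygdala, 1203 and 876 for hippocampal and 18512 and 32269 for striatal markers. The part of these markers in the *Kdm5c* result was not tested. The gene counts do not resolve single exons, so they show neither loss nor presence of exons 11 and 12 in any library.

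**Figure D2:**
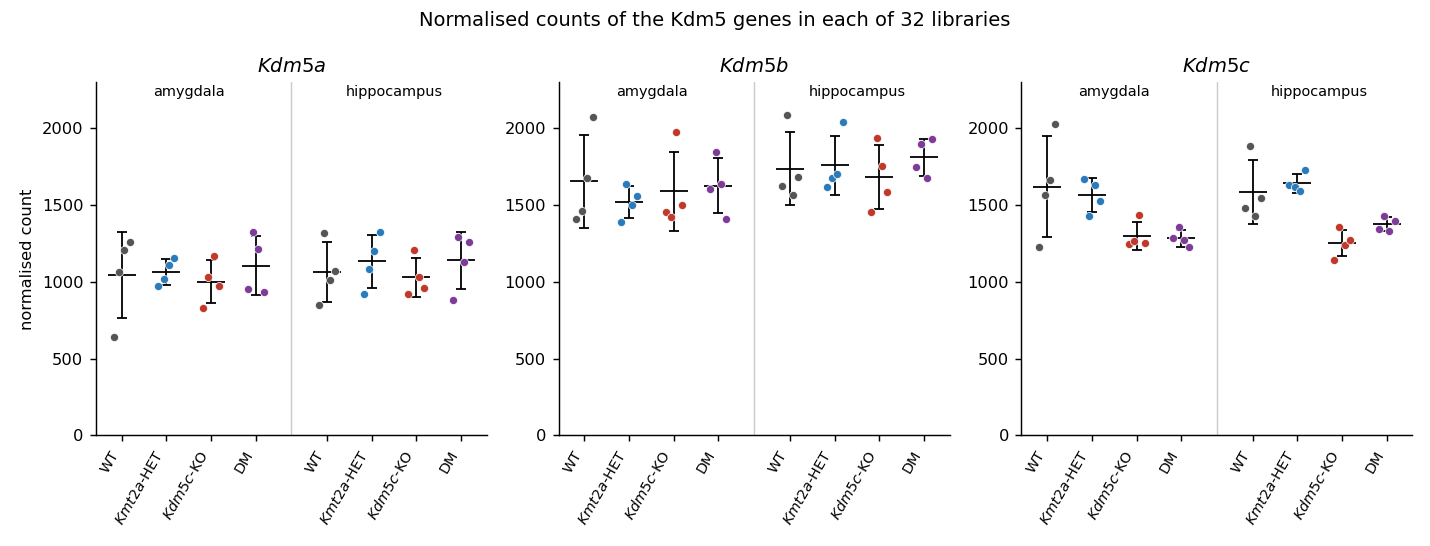
Normalised counts of *Kdm5a*, *Kdm5b* and *Kdm5c* in each of the 32 libraries, by genotype and region, as points on a linear y axis with bars for the mean ± SD of 4 mice. *Kdm5c* sits between 1145 and 1434 in the *Kdm5c*-KO and DM libraries and between 1227 and 2026 in the WT and *Kmt2a*-HET libraries, while *Kdm5a* and *Kdm5b* overlap across all genotypes.

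Comparisons between pairs of genotypes pointed the same way for *Kdm5c* with less support. In the hippocampus the 4 *Kdm5c*-KO mice had 1145, 1355, 1239 and 1274 counts and the 4 WT mice 1483, 1888, 1426 and 1549. This difference was called (-0.34, SE 0.090, DESeq2 *p-adj* = 0.0299; 1.01% of genes were called), but it was lost without WT replicate 2 (-0.24, *p-adj* = 0.132), without *Kdm5c*-KO replicate 1 (-0.30, *p-adj* = 0.198), without *Kdm5c*-KO replicate 3 (-0.33, *p-adj* = 0.146) and with edgeR (*p-adj* = 0.153). The amygdala difference was of like size and was not called (-0.32, SE 0.12, *p-adj* = 0.467; 0.756% of genes called). It was called once WT replicate 1, the lowest WT library, was left out (-0.43, *p-adj* = 0.00341), whereas without WT replicate 4 it was -0.19 (*p-adj* = 0.889). DM against WT gave -0.34 for amygdala (*p-adj* = 0.325; 0.99% of genes called) and -0.21 for hippocampus (*p-adj* = 0.487; 0.881% called). Without WT replicate 1 the amygdala value was -0.45 (*p-adj* = 0.00196), without WT replicate 4 it was -0.21 (*p-adj* = 0.493), and without WT replicate 2 the hippocampal value was -0.11 and again not called. DM against *Kmt2a*-HET gave -0.29 (*p-adj* = 0.568; 0.805% called) and -0.26 (*p-adj* = 0.351; 0.606% called), and without WT replicate 2, which shares the fit, the hippocampal value passed the threshold (-0.26, *p-adj* = 0.0313). All these comparisons within a region draw on the same 16 libraries, and those against WT share the WT mice.

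The added *Kmt2a* mutation was examined in DM against *Kdm5c*-KO. The 4 DM hippocampi had 1343, 1430, 1331 and 1394 *Kdm5c* counts, which partly overlapped *Kdm5c*-KO. The difference was 0.13 (95% interval -0.04 to 0.31, *p-adj* = 1, DESeq2), and in the amygdala -0.02 (-0.26 to 0.22, *p-adj* = 1). These comparisons called 0.0067% of genes in the hippocampus and 0.00329% in the amygdala. The interaction of the mutations, by which DM differs from the added single-mutant changes, was 0.03 for amygdala *Kdm5c* and 0.08 for hippocampal *Kdm5c*, and it was not called for any of the 3 genes. DESeq2 called 0.00329 and 0% of all genes there, with 857 and 571 at an unadjusted *p* under 0.05. Over 8 mice against 8, the *Kmt2a* mutation shifted amygdala *Kdm5c* by -0.03 (-0.20 to 0.13) and hippocampal *Kdm5c* by 0.09 (-0.03 to 0.21), where 0% (0 genes by DESeq2 or edgeR, with 934 at an unadjusted *p* under 0.05) and 0.0957% of all genes were called. *Kmt2a*-HET against WT gave -0.05 and 0.05, with 0.00329 and 0% of genes called by DESeq2 and 926 and 715 at an unadjusted *p* under 0.05. In the hippocampus the *Kmt2a* shift passed the threshold when WT replicate 2 was left out (0.14, *p-adj* = 0.0892). No fall of *Kmt2a* itself was detected in the libraries with the mutant allele, at -0.04 (SE 0.16) for amygdala and 0.19 (SE 0.17) for hippocampus, so the counts of the targeted gene did not separate the genotypes.

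*Kdm5a* and *Kdm5b* were not called in any genotype comparison of either region by DESeq2 or edgeR, and neither reached an unadjusted *p* under 0.05. *Kdm5a* was 1053 ± 191 in intact and 1053 ± 165 in mutant amygdala, and 1099 ± 175 and 1085 ± 158 in the hippocampus. Its change with *Kdm5c* loss was -0.00 (95% interval -0.25 to 0.24) and -0.02 (-0.23 to 0.19). *Kdm5b* was 1588 ± 222 in intact and 1607 ± 208 in mutant amygdala, and 1749 ± 200 and 1748 ± 172 in hippocampus, with changes of 0.02 (-0.17 to 0.21) and -0.00 (-0.16 to 0.16). The intervals are wide enough to hold a rise of up to 18.5% for *Kdm5a* and 15.6% for *Kdm5b* in amygdala, and of 14.2 and 11.4% in hippocampus. With the *Kmt2a* mutation the changes of *Kdm5a* were 0.09 and 0.12 and those of *Kdm5b* -0.04 and 0.06. The Y-linked *Kdm5d* was not called either, at 0.01 and -0.08 with *Kdm5c* loss, and had normalised counts from 346 to 670 (amygdala) and from 395 to 693 (hippocampus). A change of another KDM5 gene was not detected in the *Kdm5c* mutants at this number of mice.

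**Figure D3:**
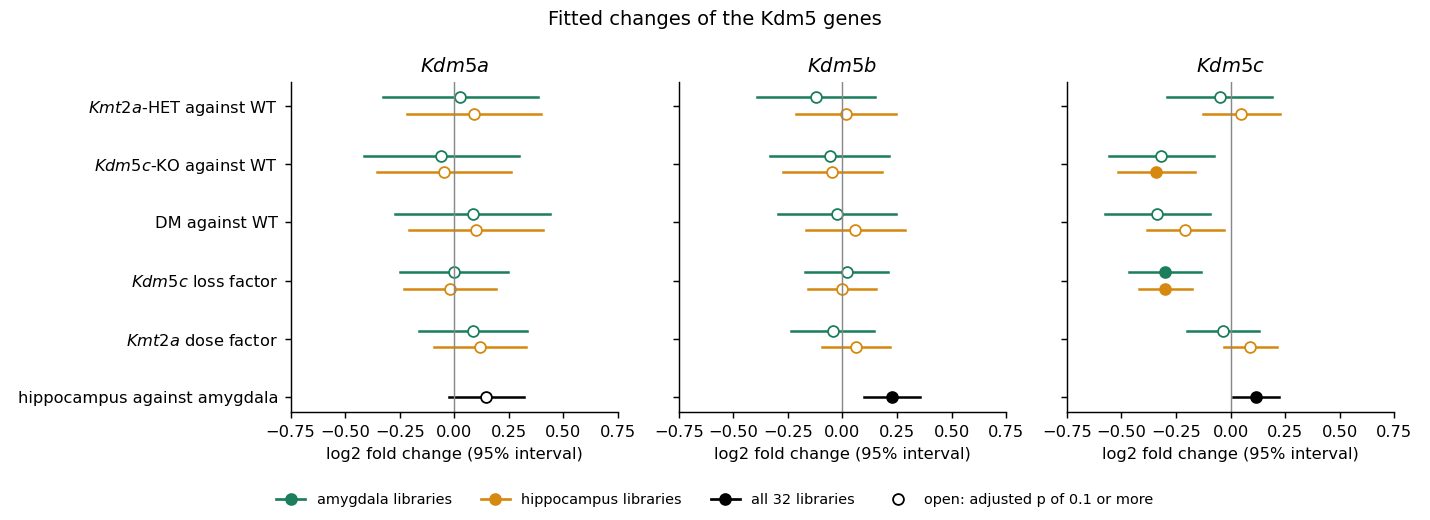
Log2 fold changes of *Kdm5a*, *Kdm5b* and *Kdm5c* with *Kdm5c* loss, with the *Kmt2a* mutation and between regions, as points with 95% intervals, filled where DESeq2 called the gene at *p-adj* under 0.1. *Kdm5c* stands at -0.30 with *Kdm5c* loss in both regions, and the intervals of *Kdm5a* and *Kdm5b* for the genotype changes include 0.

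*Kdm5b* and *Kdm5c* were higher in the hippocampus than in the amygdala of the same mice, and *Kdm5a* was not called unless the pairing of both regions was used, spike-in size factors were taken or replicate 1 of every genotype was left out. On the common scale of all 32 libraries, *Kdm5b* had a median of 1483 (1333 to 2014) in amygdala and 1745 (1506 to 2169) in hippocampus. It was higher in the hippocampus in 13 of 16 mice, although the 2 sets of libraries overlapped. The log2 fold change was 0.23 (SE 0.065, 16.9%, 95% interval 7.02 to 27.7%, DESeq2 *p-adj* = 0.0019). This comparison called 46.3% of the genes tested, so a call was common in it. *Kdm5c* ranged from 1177 to 1965 among amygdalae (median 1349) and from 1184 to 1963 among hippocampi (median 1472), and was higher in the hippocampus in 12 of 16 mice. Its log2 fold change of 0.12 (SE 0.053, 8.42%, 95% interval 0.817 to 16.6%) passed the threshold by little (DESeq2 *p-adj* = 0.068). Leaving out any of 6 mice ended that call. The value was 0.09 without WT replicate 2 (*p-adj* = 0.182), 0.10 without *Kdm5c*-KO replicate 2, and 0.11 without *Kmt2a*-HET replicate 2, *Kmt2a*-HET replicate 4, *Kdm5c*-KO replicate 4 or DM replicate 4. *Kdm5a* ranged from 616 to 1281 among amygdalae (median 1015) and from 883 to 1378 among hippocampi (median 1107), and was higher in the hippocampus in 11 of 16 mice. Its log2 fold change of 0.15 (SE 0.088, DESeq2 *p-adj* = 0.184) was not called, but was called with the mouse as a replicate block (0.15, *p-adj* = 0.0392). The other values in this paragraph come from fits that did not use the pairing. With the block *Kdm5b* and *Kdm5c* were called as well.

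The regional difference was not shown to depend on *Kdm5c*. The region-by-loss terms were -0.01 for *Kdm5a*, -0.02 for *Kdm5b* and 0.01 for *Kdm5c* (DESeq2, *p-adj* = 1 each), in a test that called 0.0876% of genes. For *Kdm5c* the 95% interval of that term ran from -0.20 to 0.22. Striatal markers were lower and choroid plexus markers mostly higher in the hippocampus (4 of 6 higher and 1 lower), and their part in the regional differences of the KDM5 genes was not tested.

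**Figure D4:**
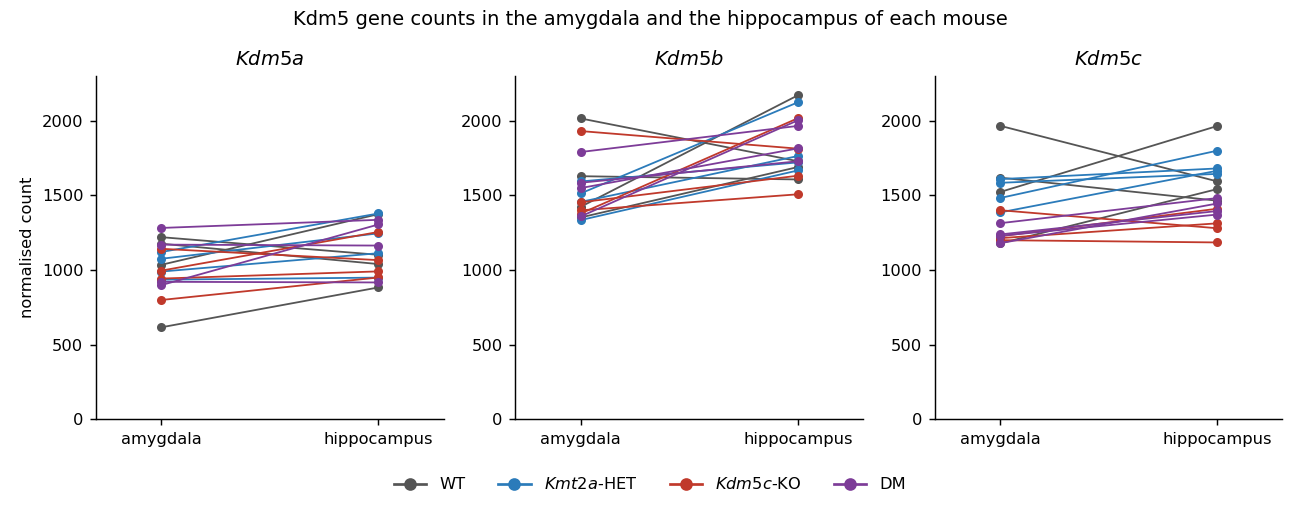
Normalised counts of *Kdm5a*, *Kdm5b* and *Kdm5c* in the amygdala and hippocampus on a linear y axis, with each line joining both regions of 1 mouse and colour giving the genotype. *Kdm5b* is higher in the hippocampus in 13 of 16 mice, *Kdm5c* in 12 and *Kdm5a* in 11.

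Each gene was dominated by few transcripts. *Kdm5c*-203 (ENSMUST00000112588.8, 6449 bases) made up 45.7 ± 7.24% of the *Kdm5c* TPM in amygdala (SD, n = 16) and 44.3 ± 5.41% in hippocampus, *Kdm5c*-202 (ENSMUST00000112584.7, 5900 bases) 31.9 ± 7.05 and 33.7 ± 6.65%, and *Kdm5c*-201 (ENSMUST00000082177.12, 5520 bases), the form without exon 3, 11.1 ± 6.10 and 12.7 ± 7.67%. As annotated, these 3 coding forms all hold the targeted exons. The shares include the libraries with the *Kdm5c* mutation. In those libraries too, counts were given for annotated forms, and TPM used their full annotated lengths. Whether the transcripts of mutant libraries hold the targeted exons was not tested. The paper reports that reads from the targeted exons were missing or reduced. The short coding *Kdm5c*-206 took 8.61 and 7.64%, *Kdm5c*-205 took 2.10 and 1.21%, and *Kdm5c*-204, with a retained intron, 0.617 and 0.401%. *Kdm5b*-203 (ENSMUST00000112198.2) took 66.0 ± 7.28 and 70.2 ± 3.36% of the *Kdm5b* TPM, against 27.1 ± 2.93 and 26.2 ± 3.35% for the longer *Kdm5b*-201 (ENSMUST00000047714.13). *Kdm5a*-201 (ENSMUST00000005108.9), the full-length coding form, took 59.4 ± 6.51 and 54.2 ± 5.37% of the *Kdm5a* TPM, and the non-coding *Kdm5a*-207 27.5 ± 7.58 and 28.1 ± 6.19%. The retained-intron *Kdm5a*-205 took 7.10 and 6.43%. The other *Kdm5a* and *Kdm5b* forms each took under 10% on average and were at 0 in some libraries, except *Kdm5b*-206, which was detected in all 32. *Kdm5a*-202, *Kdm5a*-203 and *Kdm5a*-209, seen in 8, 15 and 5 of 32 libraries, had too few counts for any test. Gene counts and the sum of their transcript counts agreed within 0.02 counts, so the transcript values divide the gene count and are not separate measurements of it.

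In the *Kdm5c* mutants the form without exon 3 had the lowest values relative to intact libraries, but the difference did not pass the test. In the amygdala WT mice had 3.23, 5.98, 3.06 and 3.60 TPM of *Kdm5c*-201, and *Kmt2a*-HET mice had 3.25, 4.66, 5.26 and 4.79. *Kdm5c*-KO mice had 2.14, 2.31, 0 and 1.65, and DM mice 3.29, 3.30, 1.5 and 0. Of the 8 mutant libraries, 6 were below every intact one. In the hippocampus WT mice had 6.11, 5.61, 5.50 and 3.53 TPM, *Kmt2a*-HET mice 7.05, 2.26, 4.01 and 4.49, *Kdm5c*-KO mice 3.18, 2.65, 0.392 and 0.385, and DM mice 5.94, 3.02, 0.0571 and 2.55. Here the groups overlapped more, and mutant libraries reached from near 0 up to the intact range. The mean was 4.23 ± 1.09 for intact and 1.77 ± 1.28 for mutant amygdala, and 4.82 ± 1.54 for intact and 2.27 ± 1.97 for mutant hippocampus (SD, n = 8 each). On the log2 scale the level of *Kdm5c-201* differed by -1.25 (SE 0.80, DESeq2 *p-adj* = 1) and -1.09 (SE 0.58, DESeq2 *p-adj* = 0.853). Its usage, which is its level relative to the other transcripts of the gene, differed by -0.94 and -0.81 (edgeR *p-adj* = 1 in both regions). With limma the usage values were larger, at -2.64 and -1.77, and again did not pass the threshold (*p-adj* = 0.122 and 0.119), and with the replicate number as a replicate block edgeR gave -1.19 and -1.25.

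The values assigned to *Kdm5c*-202 and *Kdm5c*-203 in the mutants were closer to those in intact libraries. They are values of annotated forms and do not show that mutant transcripts hold the targeted exons. *Kdm5c*-202 had a TPM of 9.94 ± 3.55 in intact and 7.36 ± 1.29 in mutant amygdala (-0.42, SE 0.18, DESeq2 *p-adj* = 0.784), and 9.99 ± 3.31 and 8.64 ± 1.46 in the hippocampus (-0.17). *Kdm5c*-203 had 12.5 ± 2.42 in intact and 11.9 ± 2.35 in mutant amygdala (-0.07), and 13.0 ± 1.3 against 11.3 ± 1.88 in hippocampus (-0.18, DESeq2 *p-adj* = 0.777). The short coding *Kdm5c*-206 had 1.59 ± 1.02 TPM in intact and 2.96 ± 2.46 in mutant amygdala (level 0.88, SE 0.64, usage 1.18), and 2.29 ± 1.14 against 1.88 ± 1.14 in hippocampus (level -0.19, usage 0.10), none of which was called. Of all KDM5 transcripts with enough counts, 0 of 14 (amygdala) and 0 of 12 (hippocampus) were called for their level by DESeq2, where 0.479 and 0.709% of all transcripts were called, with 1 at an unadjusted *p* under 0.05 in each region (*Kdm5c*-202 for amygdala, *Kdm5c*-203 for hippocampus). For usage 0 of 11 were called by edgeR in each region, where 0.0462 and 0.0381% of all transcripts were called, with *Kdm5c*-201 alone at an unadjusted *p* under 0.05 in both. The same 0 counts were found with limma in place of edgeR for usage and with edgeR in place of DESeq2 for levels. The drop of the gene count in the mutants could therefore not be assigned to 1 transcript.

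**Figure D5:**
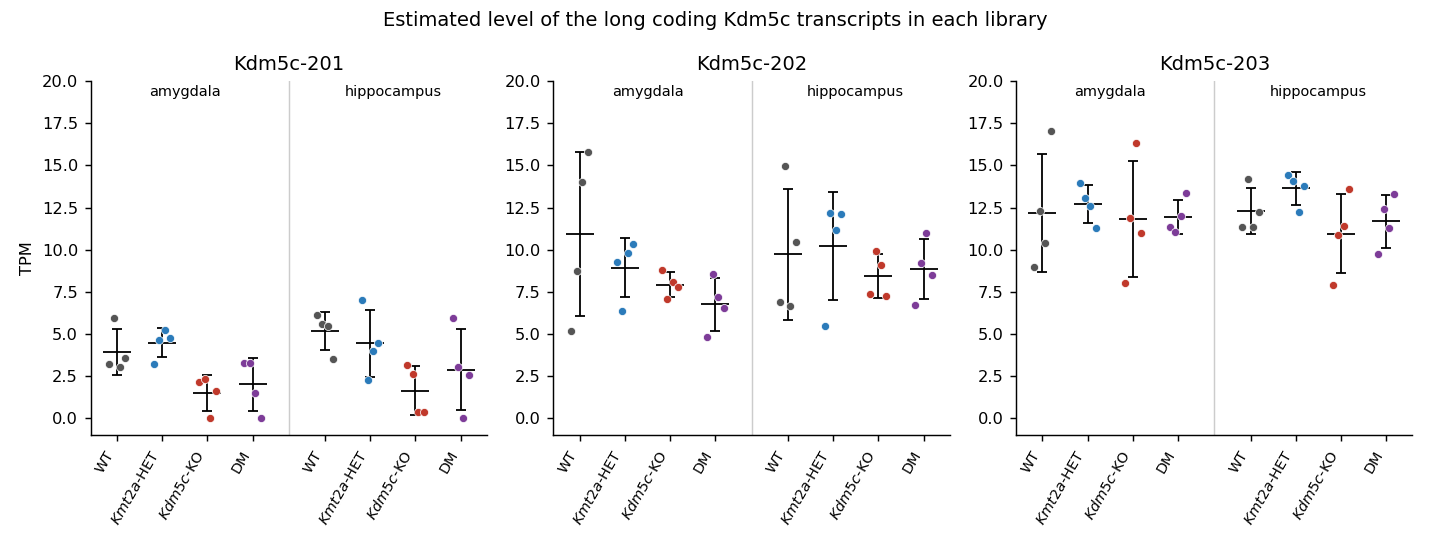
TPM assigned to the annotated forms *Kdm5c*-201, *Kdm5c*-202 and *Kdm5c*-203 in each library by genotype and region. Points are drawn on a linear y axis with bars for the mean ± SD of 4 mice. *Kdm5c*-201 has values at or near 0 only in *Kdm5c*-KO and DM libraries, while *Kdm5c*-202 and *Kdm5c*-203 overlap between all genotypes.

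Between regions, 2 of 18 KDM5 transcripts were called for their level by DESeq2, against 25.1% of all transcripts tested, and 2 of 13 for their usage by edgeR, against 3.01%. *Kdm5b*-203, the form with the early 3′ end, was higher in the hippocampus, with a TPM of 18 ± 3.95 in amygdala (10.5 to 27.4, median 17.6, n = 16) and 21.1 ± 3.59 in hippocampus (16.1 to 28.1, median 21.1). The ranges overlapped, and the log2 fold change was 0.24 (SE 0.084, DESeq2 *p-adj* = 0.0224). The longer *Kdm5b*-201 gave 0.09 (*p-adj* = 0.423), and the usage of neither form was called (edgeR, 0.06 and -0.09, *p-adj* = 1 each).

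*Kdm5a*-206 (ENSMUST00000135802.7), which ends early and is annotated as a target of nonsense-mediated decay, was higher in the hippocampus in both level and usage. In the amygdala it was at 0 in 9 of 16 libraries and reached 2.45 TPM, and in the hippocampus it was at 0 in 2 of 16 and reached 4.95 TPM. Amygdala libraries of WT mice held 0, 30.8, 5.28 and 84.5 expected counts of it, those of *Kmt2a*-HET mice 0, 11.2, 0 and 26.3, those of the 4 *Kdm5c*-KO mice 0, and those of DM mice 0, 67.7, 69.5 and 0. Hippocampal libraries of WT mice held 0, 106, 7.59 and 54.3, those of *Kmt2a*-HET mice 0, 34.3, 99.2 and 137, those of *Kdm5c*-KO mice 4.80, 149, 11.2 and 23.0, and those of DM mice 6.39, 149, 24.7 and 50.2. Both sets spread from 0 or nearly 0 upward, and the lowest hippocampal values were in mice numbered 1, in which *Kdm5a* itself was low. The mean expected count was 18.5 in amygdala and 53.6 in hippocampus. It was 30.1 and 42.0 in WT mice and 34.3 and 57.6 in DM mice, and WT replicate 4 and DM replicate 3 had less in the hippocampus. The fits averaged over genotypes gave log2 values of 3.04 for the level (SE 0.92, DESeq2 *p-adj* = 0.00663) and 3.08 for usage (edgeR *p-adj* = 0.000235). Since the *Kdm5c*-KO amygdala was at 0 in all 4 libraries, these fitted values depend on how 0 is handled and are not the size of the difference. The call for level and for usage was made in each of the 16 fits without 1 mouse. The retained-intron form *Kdm5b-204* had lower usage in the hippocampus (-2.65, edgeR *p-adj* = 0.0138), where it was at 0 in 12 of 16 libraries against 7 of 16 in the amygdala. That call was lost without WT replicate 1 (-1.95, *p-adj* = 0.22), which held its highest amygdala count of 36.7, without *Kdm5c*-KO replicate 4 (-1.44, *p-adj* = 1), with the mouse as a replicate block (-2.56, *p-adj* = 0.438) and with limma (-1.49, *p-adj* = 0.295).

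The other members of the lysine demethylase families were looked at for comparison. Of 23 further KDM genes, 0 were called by DESeq2 or edgeR with *Kdm5c* loss (1.65 and 2.71% of all genes called) or with the *Kmt2a* mutation (0 and 0.0957%) in either region, shares at which few or no calls arise among 23 genes. At an unadjusted *p* under 0.05 there was 1 with *Kdm5c* loss in each region (*Kdm3a* for amygdala, *Phf2* for hippocampus), and with the *Kmt2a* mutation there were 1 in the amygdala (*Riox1*) and 5 in the hippocampus (*Jmjd1c*, *Kdm4c*, *Kdm6b*, *Kdm7a* and *Uty*), all named after their values were seen. Between regions 9 were higher and 1 lower in the hippocampus, with a median log2 fold change of 0.07 against -0.01 over all genes, of which 5295 were higher and 5652 lower (46.3% of those tested), so the share called among KDM genes was near that of all genes. These directions are relative to the median gene, since spike-in size factors moved that median to 0.64, which made 13132 of all genes higher and 1019 lower, and 21 of the KDM genes higher and 0 lower. With the mouse as a replicate block 9 KDM genes were higher and 2 lower. *Kdm7a*, a demethylase of repressive marks, was higher by 0.83, *Kdm2b*, which belongs to a Polycomb complex, by 0.48, and *Kdm4a*, which acts on H3K9 and H3K36, by 0.22. The gene that was lower, named after its value was seen, was *Kdm4d* (-0.83). *Kdm1a*, the flavin-dependent H3K4 demethylase, was higher by 0.12 (DESeq2 *p-adj* = 0.000562). With *Kdm5c* loss it stood at -0.05 and -0.03. The Y-linked *Kdm5d* did not pass the test between regions (-0.06).

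Partners and opponents of KDM5 proteins were compared in the same way. Of 25 genes for partner proteins, 0 were called by DESeq2 or edgeR with *Kdm5c* loss or the *Kmt2a* mutation in either region, against the same shares of all genes. Those at an unadjusted *p* under 0.05 numbered 1 (*Ing1*) and 0 with *Kdm5c* loss and 0 and 1 (*Emsy*) with the *Kmt2a* mutation, in the amygdala and hippocampus. Between regions 11 were higher and 6 lower in the hippocampus (median 0.05), against 24 higher and 0 lower with spike-in size factors and 12 higher and 6 lower with the mouse as a replicate block, in a comparison that called 46.3% of all genes. *E2f6*, a repressor of the E2F family, was lower by 0.41 (log2 fold change -0.41), *Ehmt1*, an H3K9 methyltransferase, was higher by 0.30, and *Morf4l1*, a chromodomain protein, stood at -0.21. Of the 6 H3K4 methyltransferase genes, *Setd1b*, for a catalytic subunit of a SETD1 complex, fell with *Kdm5c* loss in the hippocampus. Its normalised counts there were 1812 ± 228 in intact and 1418 ± 146 in mutant libraries (n = 8 each, -0.35, SE 0.086, DESeq2 *p-adj* = 0.00559), and the call was lost with spike-in size factors. In the amygdala they were 1715 ± 266 and 1422 ± 155 (-0.27, DESeq2 *p-adj* = 0.315), where 0 of the 6 genes were called and *Setd1b* had an unadjusted *p* under 0.05. The difference between the changes in both regions was -0.08 (SE 0.14, DESeq2 *p-adj* = 1) and was not called. None of the 6 was called with the *Kmt2a* mutation by DESeq2 or edgeR, 0 of them being at an unadjusted *p* under 0.05, and *Kmt2c* (0.32) and *Kmt2d* (0.29) were higher in the hippocampus, as were 4 of the 6 with the mouse as a replicate block and all 6 with spike-in size factors.

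The genes whose counts ran most like those of each member were found by Pearson correlation of log2 counts over the 16 libraries of a region, taking the lower of both regions, among 11628 genes. These libraries share depth, dissection and the low *Kdm5a* of mice numbered 1, and genotype was not removed, so the values are descriptions. In each region 8 of the 16 carried the *Kdm5c* mutation, with which *Kdm5c* counts were lower. For *Kdm5a* they were *Arhgef12* (0.96), *Bptf* (0.94) and *Zbtb37* (0.94). For *Kdm5b* they were *Mprip*, *Tmem170b* and *Gtf3c1* (0.89 each). For *Kdm5c* the likeness was weaker, with *Iqsec1* (0.78), *Sipa1l2* (0.75) and *Ncoa3* (0.75). Between members, *Kdm5a* and *Kdm5b* correlated at 0.67 across amygdalae and 0.80 across hippocampi, *Kdm5a* and *Kdm5c* at 0.52 and 0.45, and *Kdm5b* and *Kdm5c* at 0.44 and 0.51. *Kmt2a* ranked 162 for likeness to *Kdm5a* (0.87).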

How the data were processed

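RNA from the amygdala and hippocampus of 4 mice of each genotype was converted to directional, oligo-dT primed libraries after ERCC spike-in RNA had been added, and the authors sequenced paired ends, mapped reads to mm10 with STAR 2.5.3a, and kept unique reads without duplicates. The values are expected counts per gene and per transcript as deposited by the authors, without normalization, and they are not all whole numbers. The submitters' processing notes also name featureCounts of Subread 1.5.0, deepTools 3.1.3 and DESeq2 1.14.1, but the estimator of the expected counts and the annotation release behind them are not given in the sources used here.

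Here the counts were rounded and tested with the Wald test of DESeq2 1.42.0 in R 4.3.3, with default size factors and filtering, over all genes or transcripts of the tables and with Benjamini-Hochberg adjustment. Genes were called at an adjusted *p* under 0.1. The 16 libraries of a region entered 1 fit by genotype, or 1 fit with additive terms for *Kdm5c* loss and the *Kmt2a* mutation (8 mice against 8). Regions were compared in 1 fit of 32 libraries with 8 groups. Transcript usage was tested with diffSpliceDGE of edgeR 4.0.16 on transcripts that passed filterByExpr. TPM were computed from the counts and the GENCODE M21 transcript lengths, and 229 transcripts without a length, with at most 0.085% of the counts of a library, were left out. Symbols and coordinates were taken from GENCODE M21 (mm10) for 53620 genes, and 95 had none. The 92 ERCC sequences were left out of all tests. Intervals are at the 95% level from the SE. Figures were drawn with matplotlib 3.10.9 in Python 3.11.15.

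The members, lists and tests were chosen with earlier results of these data known. Of the lists (23 further KDM genes, 25 genes for partner proteins, 6 H3K4 methyltransferases, and markers of hippocampus, amygdala, choroid plexus and striatum), the called genes were named in the order of adjusted *p*, at most 3 for each comparison, together with *Kdm5d* and *Kdm1a*. Other genes are said to have been named after their values were seen. The genes most like each member were the first 3 by correlation of log2(count + 1) in both regions, with a mean count of at least 100. The labels give both regions of a mouse the same number. After group means were removed, the median correlation between both regions of 1 mouse was 0.161, with 14 of 16 mice over 0.1, and between other mice of the genotype it was -0.0884. The main fits of regions did not use this pairing. The mouse was used as a replicate block in an alternative fit, whose values are given where it changed a call.

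The alternatives were edgeR with TMM normalization, TMM or spike-in size factors in DESeq2, a filter of 10 counts in 4 libraries, an adjusted *p* under 0.05, a fit of the 2 genotypes at issue alone, the replicate number or mouse as a block, leaving out replicate 1 of every genotype or each library in turn, limma 3.58.1 diffSplice for usage, and gene length by the longest transcript. The tests were run on simulated counts with known changes: DESeq2 made more false calls than its threshold allows, edgeR fewer, and the usage test of edgeR found few of the changes and understated their size, more so than limma, so that a usage count of 0 says little. Reads over single exons were not analysed here.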

Additional observations from a re-analysis of the deposited data

Results flagged for a closer look

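Of 72 groups of 4 libraries examined for a single library far from the others, 24 for genes and 48 for transcripts, 3 held one by Dixon's test, and chance alone marks about 1 group in 20. The amygdala of *Kdm5c*-KO replicate 3 had the highest *Kdm5b* count of its group, 1977 against 1424 to 1498 in the others. The same library had the highest *Kdm5c* count, 1434 against 1248 to 1268, and still lay below 6 of the 8 intact amygdala libraries. The *Kdm5c* call in the amygdala was made without this library as well (log2 fold change -0.32, DESeq2 *p-adj* = 0.0177). The hippocampus of *Kmt2a*-HET replicate 1 had 5.50 TPM of *Kdm5c*-202 against 11.2 to 12.2 in the others of the group.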

How the results depend on the processing

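The *Kdm5c* fall with loss of the gene, in amygdala and in hippocampus, was called under every alternative except spike-in size factors, with which it was -0.45 and -0.43 and was not called. It was called in each fit that left out 1 library. Over 54 gene comparisons and 1272 values under alternatives, 1245 stayed on the same side of the threshold, 16 lost the call, 11 gained it and 0 called values changed sign. Among the 1245 were 127 values, not called and at most 0.64 in size, whose sign changed. Spike-in size factors moved the median of all genes from -0.01 to 0.64 in hippocampus against amygdala, and from -0.01 to -0.16 and -0.14 with *Kdm5c* loss. Relative to that median *Kdm5c* was at -0.29 in both regions, and the region differences were 0.18 for *Kdm5a*, 0.27 for *Kdm5b* and 0.15 for *Kdm5c*. The region difference of *Kdm5a* passed the threshold with the mouse as a replicate block (0.15), with spike-in size factors (0.83) and without replicate 1 of every genotype (0.14). That of *Kdm5c* missed an adjusted *p* under 0.05 (0.12), and ranged from 0.089 to 0.15 with 1 mouse left out.

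Pairs of genotypes depended more on the setting. *Kdm5c*-KO against WT in the hippocampus lost its *Kdm5c* call with edgeR (-0.34), spike-in size factors (-0.14), only these 2 groups (-0.34) and without replicate 1 of every genotype (-0.33), and ranged from -0.39 to -0.24 with 1 library left out. In the amygdala it gained a call without replicate 1 of every genotype (-0.41) and ranged from -0.43 to -0.19, and DM against WT gained one in the same way (-0.45) and ranged from -0.45 to -0.21. DM against *Kmt2a*-HET gained a *Kdm5c* call with only these 2 groups in the amygdala (-0.29) and with the replicate number as a replicate block in the hippocampus (-0.26), where it ranged from -0.28 to -0.23. The *Kmt2a* shift of hippocampal *Kdm5c* ranged from 0.069 to 0.14. Within a region, equal numbers mark no shared animal. Deviations of equally numbered mice correlated at a median of 0.10 in amygdala and -0.01 in hippocampus, and the replicate block changed no other call of the 3 genes there. With it, 3 KDM genes and 1 H3K4 methyltransferase gene were called higher with the *Kmt2a* mutation in hippocampus, where calls over all genes rose from 6 higher and 13 lower of 19844 to 61 and 64 of 14336. Without replicate 1 of every genotype, 1 H3K4 methyltransferase gene was called lower with *Kdm5c* loss in amygdala, where lower calls over all genes rose from 58 of 20732 to 165 of 18699.

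The number of KDM5 transcripts with a regional change in usage was 1 in place of 2 with the mouse as a replicate block and with limma, and 1 to 2 with 1 mouse left out. Gene counts over the longest transcript gave levels of 11.95 and 12.8 for *Kdm5a* and 22.7 for amygdala *Kdm5b*. The cause of these differences was not tested. Changes of *Kdm5a* and *Kdm5b* within the intervals given are not settled by 8 mice against 8, and transcripts with few counts, such as *Kdm5b*-204, rest on single libraries. Transcript values depend on an estimator that the sources do not name. For *Kdm5c* in mutant libraries they also rest on annotated forms and lengths that include the targeted exons.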
